A study of Mus musculus with 24 samples.

Results

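The insulin receptor Insr, its substrates Irs1 and Irs2, the adaptor Grb14, the phosphoinositide 3-kinase subunits Pik3r1 and Pik3ca, the kinases Akt1 and Akt2, and the glucagon receptor Gcgr were followed in mouse liver. These 9 genes were taken by name from the gene symbols of the array's spots, with control spots left out. They were covered by 17 of the array's 56605 probes, and all 9 were among the 17215 genes tested, which needed a probe above background in 5 or more of the 22 animals. The arrays were 1-colour Agilent expression arrays, on which total RNA labelled with the dye Cy3 binds to probes of 60 bases. All mice were male C57Bl/6J, 8 weeks old, kept in a 12 h light and 12 h dark cycle on Safe 04 chow, and sampled at ZT16, in the dark phase, where ZT counts hours from lights on. The 4 groups were liver wild-type mice (LWT) fed ad libitum (5 animals), LWT mice fasted for 24 h (5 animals), mice with a liver knockout of Ppara (LKO) fed ad libitum (6 animals) and LKO mice fasted for 24 h (6 animals). The Ppara product is a nuclear receptor that senses fatty acids and, in fasting, drives their oxidation and the making of ketone bodies. The labels give neither the promoter that drove the deletion nor the part of the gene that was removed. The labels place 24 arrays on 22 animals, because fed LWT replicate 3 and fasted LWT replicate 1 were each hybridised on 2 arrays, whereas the series design states 24 individual mice. The animal numbers were followed and the repeat arrays of an animal were averaged.

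Insulin binds a receptor tyrosine kinase that phosphorylates the adaptor proteins Irs1 and Irs2. These recruit phosphoinositide 3-kinase, a dimer of a regulatory subunit such as p85alpha (Pik3r1) and a catalytic subunit such as p110alpha (Pik3ca), and the lipid it makes brings Akt kinases to the membrane, where they become active. Glucagon acts on the same hepatocytes through a G protein-coupled receptor that raises cyclic AMP, and it dominates in fasting, when insulin is low. Transcript levels say nothing of phosphorylation, on which both pathways run.

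Levels below are log2 signals relative to the 75th percentile of the array's own spots, so that 0 is the signal at that percentile and 1 unit is a doubling. A level cannot be compared between genes, because each probe binds with its own strength. Changes are log2 differences between group means with their standard error (SE) from a limma fit to all genes and all 22 animals, adjusted by the Benjamini-Hochberg method over 17215 genes. A change was called where the adjusted p was below 0.05. Because whole liver was measured, fewer cells of a type and less RNA per cell cannot be told apart.

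The probes of 4 members are shown here, 5′ to 3′ and in lower case, because they lie in protein-coding sequence and so show which stretch of the transcript the values count. The Pik3r1 probe is spread over 1043 bases at chr13:102459406-102460448 (mm9, minus strand), so it crosses an exon junction. The Irs2 probe lies at chr8:11004490-11004549 and the dimmer Insr probe, in the kinase domain, at chr8:3159473-3159532, both on the minus strand. The dimmest Akt1 probe, at chr12:113900509-113909775 on the minus strand, holds the ATG start codon and crosses an intron, and its values differ from those of the brightest Akt1 probe.
Pik3r1 A_52_P307938: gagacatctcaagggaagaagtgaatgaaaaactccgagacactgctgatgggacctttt
Irs2 A_66_P102260: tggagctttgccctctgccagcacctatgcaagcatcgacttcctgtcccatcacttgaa
Insr A_52_P6490: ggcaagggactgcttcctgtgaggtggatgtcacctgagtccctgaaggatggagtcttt
Akt1 A_52_P418014: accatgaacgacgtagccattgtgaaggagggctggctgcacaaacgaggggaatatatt

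The brighter of the Ppara probes ranged from 5.01 to 5.50 in fed LWT and 3.93 to 4.97 in fed LKO mice, and from 5.71 to 6.05 in fasted LWT and 4.86 to 5.17 in fasted LKO mice. Ppara was thus lower in LKO but well above background in every animal, and whether these probes lie in the deleted part was not stated. The array's 75th percentile was 444.1 to 614.2 intensity units, and 52.1% to 60.5% of probes were well above background. Fed LKO replicate 3 stood apart, with a root mean square difference of 0.54 from the mean of the other fed LKO mice over all genes, against 0.28 to 0.38 for the remaining animals of all groups. Its level of Lcn2, an acute phase gene, was 6.98, while the 5 remaining fed LKO mice had 0.37 to 2.22. Without it, the members called were the same in number in 4 of the 5 comparisons, and Akt2 was added as lower in fasted LKO than fasted LWT mice. The 11 hepatocyte markers tested summed to 5050 to 5870 times the percentile signal over all groups, a sum in which bright probes weigh most. Of 10 pancreas markers 6 (Ins1, Ins2, Sst, Iapp, Cpa1 and Pnlip) did not pass the filter on dim probes and 4 (Gcg, Amy2a5, Ctrb1 and Cela1) were tested.

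Fasting lowered Pik3r1, Akt1 and Akt2 in both genotypes, and the other members called were not the same in LWT and LKO mice. In LWT mice 1 member rose (Insr) and 3 fell (Pik3r1, Akt1, Akt2), where 44.4% of all genes tested were called (22.8% higher and 21.7% lower). In LKO mice 1 rose (Grb14) and 4 fell (Irs1, Pik3r1, Akt1, Akt2), where 49.7% of all genes were called (23% higher and 26.7% lower). No member was called between fed LKO and fed LWT mice with limma, where 3.97% of all genes were (1.99% higher and 1.99% lower). Before adjustment, and with the brightest probe of each gene, 1 member had a p below 0.05 there, Pik3r1 at 0.0272. Between fasted LKO and fasted LWT mice 2 members were higher (Grb14, Pik3r1) and 3 lower (Insr, Irs1, Gcgr), where 38% of all genes were called (18.1% higher and 19.9% lower). The difference of the fasting responses, the interaction term, was called for 3 members (Insr, Grb14, Pik3r1), where 18.3% of all genes were (7.71% higher and 10.6% lower). Of those genes' calls 42.2% were higher, against 51.1% with quantile normalization and 50.5% in the authors' deposited table. The share of members called therefore lay near that of all genes in the fasting comparisons, and the median change of the 9 members was 0.05 in LWT and -0.33 in LKO against 0.00498 and -0.0365 over all genes. Groups did not overlap for 4 members with fasting in LWT and 3 in LKO, where 34.5% and 27.3% of all genes had no overlap, and for 5 members between the fasted genotypes, where 25.3% had none.

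**Figure D1:**
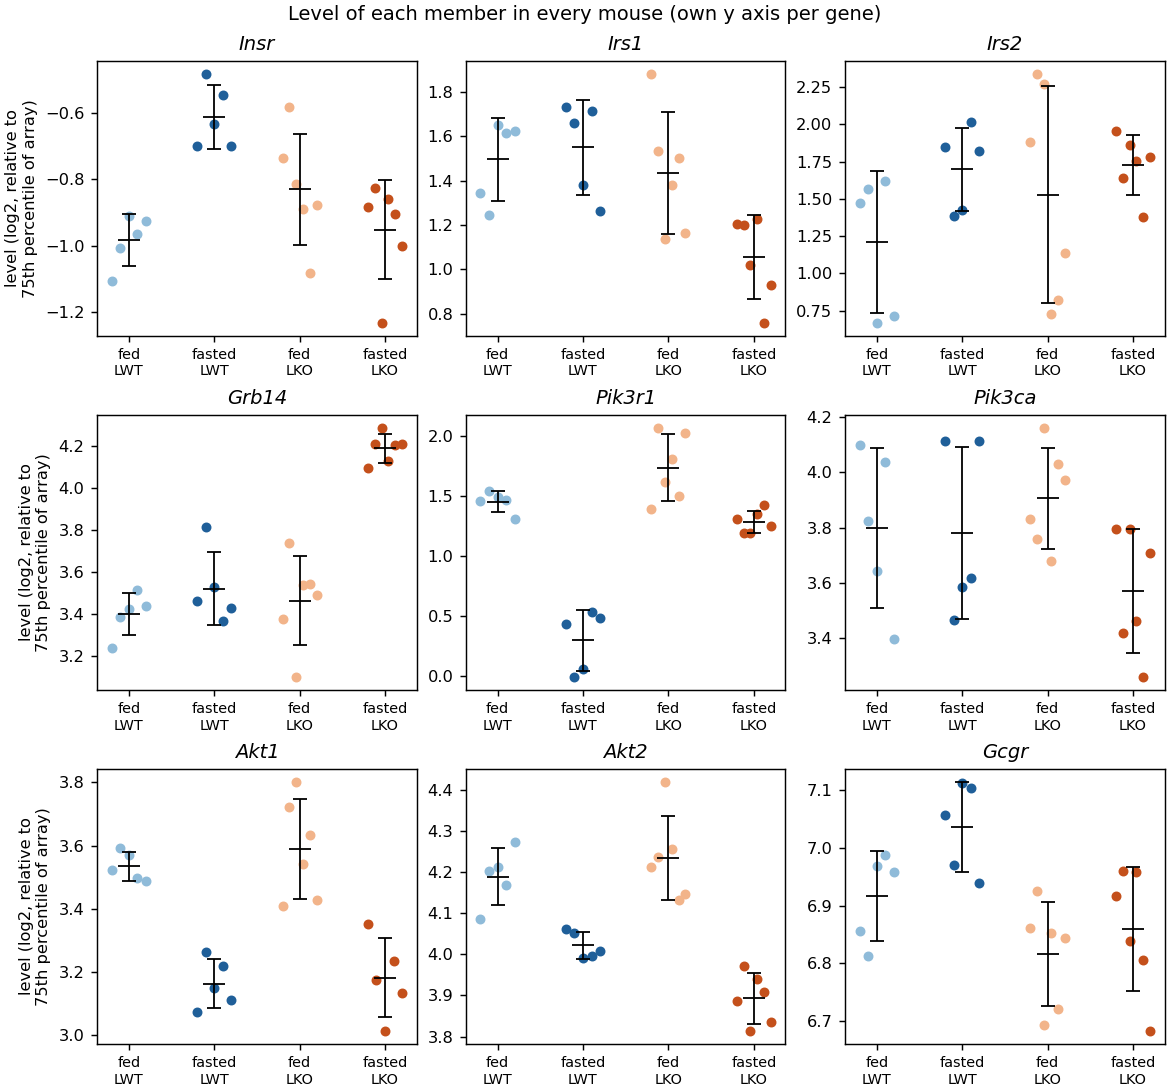
Level of each member in every mouse, on the log2 scale relative to the 75th percentile of the array (own y axis per gene); points are animals and bars are the mean with 1 SD in the 4 groups. Pik3r1 is lowest in the 5 fasted LWT mice, Grb14 is highest in the 6 fasted LKO mice, and Irs2 is widely spread in fed mice of both genotypes.

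**Figure D2:**
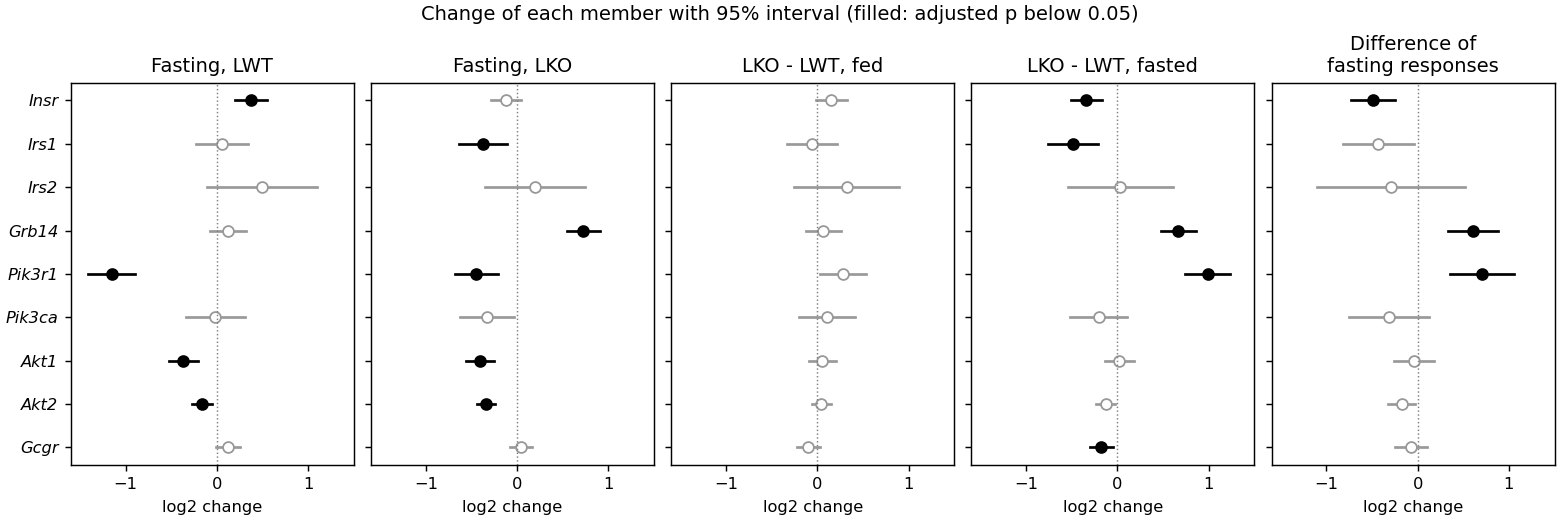
Log2 change of each member in the 5 comparisons, with a 95% interval built from the limma SE as a line. The interval uses residual degrees of freedom, without those that limma adds for its test. Filled points had an adjusted p below 0.05. No member is filled between fed genotypes, and Insr, Grb14 and Pik3r1 are filled in the difference of the fasting responses.

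Pik3r1 had the largest fasting response of the members in LWT mice, and its response was smaller in LKO mice, where that of Grb14 was the largest. Its levels in fed LWT mice were 1.46, 1.55, 1.49, 1.47 and 1.32, and in fasted LWT mice 0.44, -0.01, 0.06, 0.54 and 0.48. All fasted LWT mice lay below all fed ones. Fed LKO mice had 1.40 to 2.07 (median 1.72), and fasted LKO mice 1.19 to 1.43 (median 1.28), so that in LKO the groups overlapped. Fasting lowered Pik3r1 2.23-fold in LWT mice (log2 change -1.15, SE 0.12, adjusted p 3.02e-07) and 1.37-fold in LKO mice (-0.45, SE 0.11, adjusted p 0.0023). The response differed between the genotypes by 0.71 (SE 0.17, adjusted p 0.00576), and by 0.63 to 0.77 within each of the 3 slides. In fasted mice Pik3r1 was 1.98-fold higher in LKO than in LWT (0.99, SE 0.12, adjusted p 1.56e-06), with no overlap. Of all genes tested, 5.55% changed more than Pik3r1 with fasting in LWT mice. Only Pik3r1 had group means spanning 1 log2 unit or more (1.44). The genes most like it over the 22 animals, by the root mean square difference of centred levels among 14338 genes, were Cacul1 (0.24), Ifi47 (0.24) and Samd1 (0.25).

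Grb14 encodes an adaptor that binds the activated insulin receptor and inhibits its kinase, and it rose with fasting in LKO mice. In LWT mice it was not called, and the interaction term was. The 5 fed LWT mice had 3.24, 3.39, 3.42, 3.52 and 3.44, and the 5 fasted LWT mice 3.46, 3.82, 3.53, 3.37 and 3.43. Fed LKO mice lay between 3.10 and 3.74 (median 3.51) and fasted LKO mice between 4.10 and 4.29 (median 4.21). The 6 fasted LKO mice were thus above every other mouse of the study and close to each other (SD 0.07). The change with fasting was 0.12 in LWT mice (SE 0.10, adjusted p 0.324) and 0.72 in LKO mice, or 1.65-fold (SE 0.09, adjusted p 8.49e-07). The difference of the responses was 0.60 (SE 0.13, adjusted p 0.00276), and Grb14 was 1.59-fold higher in fasted LKO than fasted LWT mice (adjusted p 8.73e-06). All 3 detected Grb14 probes rose in LKO mice, by 0.72, 0.80 and 1.06. The fourth probe, for transcript ENSMUST00000146807, was not well above background on any array. Without fed LKO replicate 3, which had the lowest Grb14 level of its group, the rise in LKO mice was 0.65.

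Insr rose with fasting in LWT mice and was not called in LKO mice. Its levels were -1.11, -1.01, -0.91, -0.96 and -0.92 in fed LWT mice and -0.70, -0.48, -0.63, -0.55 and -0.70 in fasted LWT mice, with no overlap. Fed LKO mice lay between -1.08 and -0.58 (median -0.84) and fasted LKO mice between -1.23 and -0.83 (median -0.89), which overlap. The change was 0.37 in LWT (1.29-fold, SE 0.08, adjusted p 0.00129) and -0.12 in LKO (SE 0.08, adjusted p 0.208). The responses differed by -0.49 (SE 0.11, adjusted p 0.00521), and in fasted mice Insr was lower in LKO by -0.34 (SE 0.08, adjusted p 0.00237), or 1.27-fold. The second Insr probe, printed above, gave changes of 0.38 in LWT and -0.02 in LKO mice. For that probe the difference of the responses was -0.40 with an adjusted p of 0.113 in a fit over all kept probes, so this call rests on the brighter probe.

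Of the receptor substrates, Irs1 fell in LKO mice and Irs2 was called in no comparison. Irs1 levels were 1.34, 1.25, 1.65, 1.62 and 1.63 in fed LWT mice and 1.73, 1.66, 1.38, 1.71 and 1.26 in fasted LWT mice. In LKO mice Irs1 ranged from 1.14 to 1.88 (median 1.44) when fed and from 0.76 to 1.23 (median 1.11) when fasted, below every fasted LWT mouse. Fasting changed Irs1 by 0.05 in LWT (SE 0.14, adjusted p 0.784) and by -0.38 in LKO (SE 0.12, adjusted p 0.0159). Irs1 was 1.41-fold lower in fasted LKO than in fasted LWT mice (-0.49, SE 0.13, adjusted p 0.00516). The difference of the responses, -0.43 (SE 0.18), was not called (adjusted p 0.113), with a 95% interval of -0.82 to -0.04.

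Irs2, the substrate that dominates in the fasted liver and whose transcript insulin lowers, was spread widely among fed mice. Fed LWT mice had 1.48, 1.56, 0.67, 1.62 and 0.72, and fed LKO mice 1.88, 2.34, 2.27, 0.73, 0.82 and 1.14, an SD of 0.48 and 0.73. Fasted LWT mice had 1.85, 1.38, 1.42, 2.01 and 1.82 and fasted LKO mice 1.96, 1.64, 1.86, 1.75, 1.38 and 1.78, an SD of 0.28 and 0.20. In both genotypes some fed mice thus reached the fasted level and others lay below every fasted mouse. The changes with fasting were 0.49 in LWT (SE 0.29, adjusted p 0.177) and 0.20 in LKO (SE 0.26, adjusted p 0.563), with 95% intervals of -0.11 to 1.09 and -0.35 to 0.75. The 2 arrays of fed LWT replicate 3 gave 0.73 and 0.60, so its low level was measured on both. Without fed LKO replicate 3, which had a high Irs2 level, the change in LKO was 0.35 (adjusted p 0.281).

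Endothelial marker genes, like Insr and Irs1, were lower in fasted LKO than in fasted LWT mice. With fasting, Insr was called in LWT mice alone, as higher, and Irs1 in LKO mice alone, as lower. Of 10 markers of liver endothelium, 6 rose and 0 fell with fasting in LWT mice, 1 rose (Lyve1) and 5 fell in LKO mice, 10 were lower in fasted LKO than fasted LWT mice, and 8 had a called difference of the responses, all negative. Over all genes, 22.8% rose and 21.7% fell in LWT mice, and 23% rose and 26.7% fell in LKO mice. Of all genes, 19.9% were lower between fasted genotypes and 10.6% had a called negative difference. The markers' summed signal was 41.4 to 52.9 in fed LWT, 46.1 to 70 in fasted LWT, 38.1 to 55 in fed LKO and 31.9 to 39.6 in fasted LKO mice, in multiples of the percentile signal. Bright probes weigh most in this sum: in fed LWT mice the mean level was 4.36 for Clec4g and -2.56 for Pecam1. Their part in the Insr and Irs1 results was not tested. Of these markers, Tek was lower by -1.08 (adjusted p 5.37e-06) and Clec4g by -0.94 (adjusted p 1.17e-05) in fasted LKO than in fasted LWT mice.

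**Figure D3:**
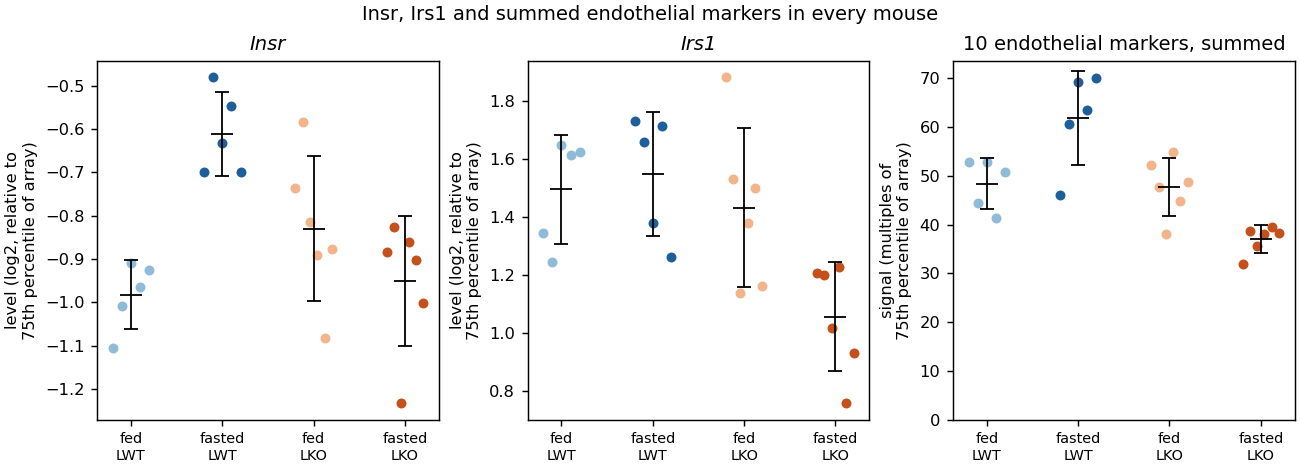
Insr and Irs1 levels (log2, relative to the 75th percentile of the array) and the summed signal of 10 endothelial markers (multiples of that percentile) in every mouse, with the mean and 1 SD for each group. The fasted LKO mice, at 31.9 to 39.6, have the lowest endothelial sums of the fasted mice, and fasted LWT mice lie at 46.1 to 70. Bright probes weigh most in the sum.

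The catalytic subunit Pik3ca was not called in any comparison. Its levels were 4.10, 3.82, 3.64, 4.04 and 3.39 in fed LWT and 4.11, 3.46, 3.59, 3.62 and 4.11 in fasted LWT mice. Fed LKO mice had 3.68 to 4.16 (median 3.90) and fasted LKO mice 3.26 to 3.80 (median 3.58). The change in LKO mice was -0.33 (SE 0.14) with an adjusted p of 0.0544, and it had an adjusted p of 0.0116 with slide as a block. In LWT mice it was -0.02 (SE 0.15, 95% interval -0.34 to 0.30). The difference between the genotypes' responses was not called (-0.31, SE 0.21, adjusted p 0.329).

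The kinases Akt1 and Akt2 fell with fasting in both genotypes. Akt1 went from 3.52, 3.59, 3.57, 3.50 and 3.49 in fed LWT mice to 3.07, 3.26, 3.15, 3.22 and 3.11 in fasted ones. In LKO mice it ranged from 3.41 to 3.80 (median 3.59) when fed and from 3.01 to 3.35 (median 3.18) when fasted. Fed and fasted mice did not overlap in either genotype. The change was -0.37 in LWT (SE 0.07, adjusted p 0.000466) and -0.41 in LKO (SE 0.07, adjusted p 9.36e-05), where fasted LKO replicate 5 had no value because the scanner software marked its spot as an outlier, leaving 5 fasted LKO mice.

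The Akt1 probes did not give 1 answer. The probe that holds the start codon fell by -0.58 in LWT and -0.33 in LKO mice and was higher in fasted LKO than fasted LWT mice by 0.55 (SE 0.10, adjusted p 0.000352), whereas the brightest probe differed there by 0.02. Between fed genotypes the start codon probe was higher in LKO by 0.30 but not called (limma p 0.00827, adjusted p 0.128). The difference of its responses, 0.24, was not called either (adjusted p 0.3). The probe for transcript ENSMUST00000159815 was not called with fasting in either genotype (0.01 and -0.18). Which Akt1 transcripts each probe binds was not tested.

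Akt2, the main Akt kinase of insulin action in liver, had 4.09, 4.20, 4.21, 4.17 and 4.27 in fed LWT and 4.06, 4.05, 3.99, 4.00 and 4.01 in fasted LWT mice. In LKO mice it ranged from 4.13 to 4.42 (median 4.22) when fed and from 3.81 to 3.97 (median 3.90) when fasted. No fasted mouse reached a fed mouse of its genotype, and the fall was -0.17 in LWT (SE 0.05, adjusted p 0.0142) and -0.34 in LKO (SE 0.05, adjusted p 6.34e-06). The fall in LWT was called with the brightest probe alone. The other probes changed by -0.07 and -0.12 there and were not called, while all 3 fell in LKO. In fasted mice Akt2 was lower in LKO by -0.13 (SE 0.05) with an adjusted p of 0.0505 and so was not called. With the percentile taken over probes in place of spots, tried first, it was 0.035. In the fit over all probes the other probes were called lower there at -0.24 and -0.28.

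**Figure D4:**
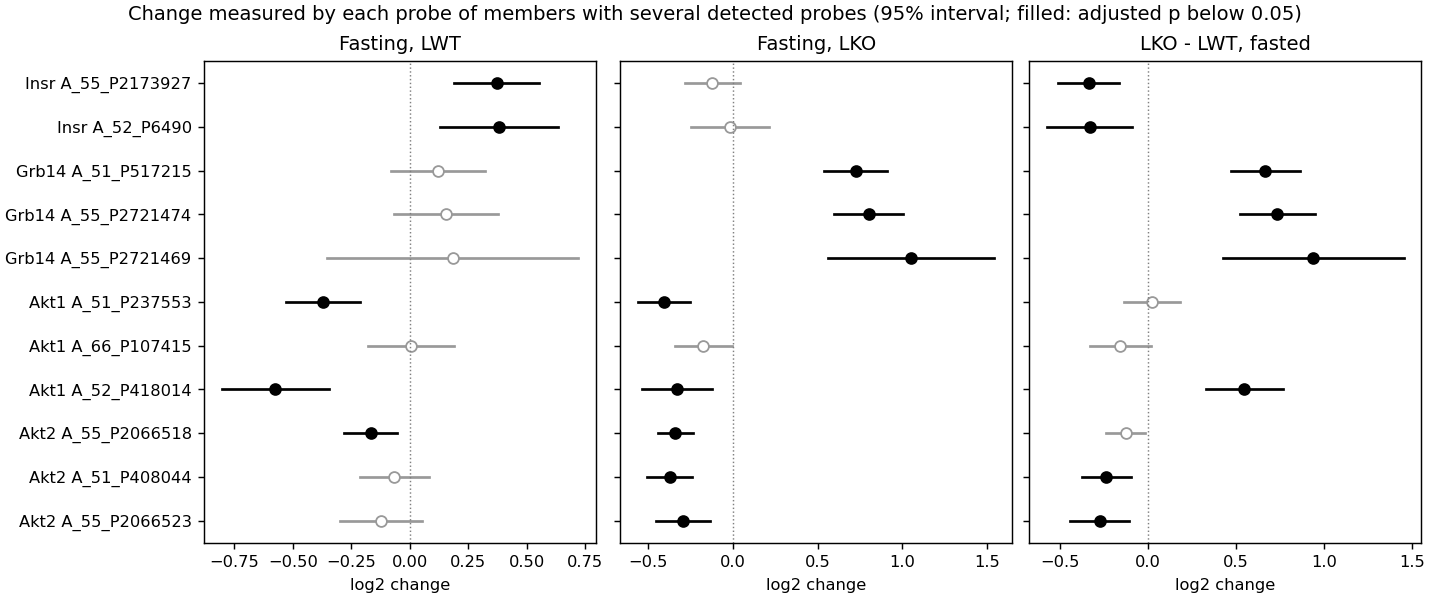
Log2 change measured by each detected probe of the members with several probes, with the 95% interval and filled where the adjusted p over all kept probes was below 0.05. The 3 Grb14 probes rise together in LKO mice, and the 3 Akt1 probes differ between fasted genotypes, at 0.02, -0.16 and 0.55.

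Gcgr was the member whose level varied least between groups. Fed LWT mice had 6.86, 6.81, 6.97, 6.99 and 6.96, and fasted LWT mice 7.06, 6.97, 7.11, 7.10 and 6.94. Fed LKO mice ranged from 6.69 to 6.93 (median 6.85) and fasted LKO mice from 6.68 to 6.96 (median 6.88). Fasting changed Gcgr by 0.12 in LWT (SE 0.06, adjusted p 0.125, 95% interval -0.01 to 0.25) and by 0.04 in LKO (SE 0.06, adjusted p 0.556, interval -0.08 to 0.16). In fasted mice it was lower in LKO by -0.18 (SE 0.06, adjusted p 0.0235), or 1.13-fold. That call was lost with quantile normalization (-0.10, adjusted p 0.208), in the authors' deposited table (-0.07, adjusted p 0.413), with the replicate block (-0.16, adjusted p 0.0547) and without the filter on dim probes (adjusted p 0.0508). It was also lost without fasted LWT replicate 3 (adjusted p 0.0651), fasted LWT replicate 4 (0.0596) or fasted LKO replicate 6 (0.0591).

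The insulin and glucagon receptors, the substrates and the Akt kinases were compared in pairs within each animal. The tests were 2-sided exact permutation tests adjusted over 6 tests. Gcgr minus Insr fell from 7.90 to 7.65 in LWT mice, a change of -0.25 (exact p 0.007937, the smallest possible for 5 against 5, adjusted 0.0476). In LKO mice that difference went from 7.65 to 7.81, a change of 0.17 (exact p 0.05844, adjusted 0.117). Akt2 minus Akt1 rose from 0.65 to 0.86 in LWT mice, by 0.20 (exact p 0.01587, adjusted 0.0476), and changed by 0.06 in LKO mice (exact p 0.4048, adjusted 0.405). Irs2 minus Irs1 changed by 0.44 in LWT (exact p 0.2302, adjusted 0.276) and by 0.57 in LKO (exact p 0.09957, adjusted 0.149). The call for Akt2 minus Akt1 was lost with quantile normalization (adjusted p 0.0714), in the authors' deposited table (0.0519) and without fed LWT replicate 1 (0.0952) or any of fasted LWT replicates 1, 2, 3 and 5 (0.0714 each), and that for Gcgr minus Insr in LWT without fed LWT replicate 1 (0.0952). Leaving out an animal also raises the smallest exact p possible, and without fed LWT replicate 1 Gcgr minus Insr in LWT still changed by -0.2354. A within-array difference shows unequal change and not that either gene stayed level.

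The other genes of the pathway, from lists chosen with earlier results of these data known, were counted against the shares of all genes: 22.8% higher and 21.7% lower with fasting in LWT, 23% and 26.7% in LKO, and 18.1% and 19.9% between fasted genotypes. Of 14 tested non-member genes listed as dampers of the receptor and its substrates, 7 fell and 1 rose with fasting in LWT mice. The median was -0.12 over the whole list of 15, and what each gene does to the receptor was not tested. Among the genes that fell were Cish, a STAT5 target, at -2.33 (adjusted p 0.00335), the receptor-binding adaptor Grb10 (adjusted p 3.77e-05), the phosphatase Ptprf at -0.93 and Socs1 at -0.71 (adjusted p 0.00497). In LKO mice 4 fell and 2 rose, Grb10 among the former (adjusted p 1.22e-06), while Cish changed by -1.23 with an adjusted p of 0.0676 and Socs1 by -0.10. Grb10 was well above background on only 1 of 6 arrays of fasted LWT and 4 of 6 of fasted LKO mice, so no size of its fall is given. In fasted mice Socs1 was higher in LKO by 0.83 (adjusted p 0.00132), as Grb14 was.

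Of 11 tested non-member receptors and adaptors, 1 rose and 3 fell with fasting in LWT mice, and 3 rose and 2 fell in LKO mice. The adaptor Sh2b2 fell by -0.95 in LWT (adjusted p 0.000382) and changed by -0.18 in LKO (adjusted p 0.403), a difference of 0.76 (adjusted p 0.0434). The ubiquitin ligase Cbl fell by -0.52 in LWT and changed by -0.09 in LKO, a difference of 0.43 (adjusted p 0.013). Both had the sign of difference seen for Pik3r1. Gab1, a docking protein, was the only gene of that list called between fed genotypes (-0.37, adjusted p 0.0263).

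Among the phosphoinositide 3-kinase genes 4 of 14 non-members rose and 3 fell in LWT mice, and 5 rose and 3 fell in LKO mice. The regulatory subunit Pik3r3 fell in both genotypes, by -1.45 in LWT (adjusted p 4.17e-08) and -1.16 in LKO (adjusted p 1.33e-07), and the difference of 0.29 was not called (adjusted p 0.296). Pik3c2g, a class II kinase, rose by 0.90 in LWT and changed by -0.29 in LKO, a difference of -1.19 (adjusted p 0.0106). The catalytic subunit Pik3cd, mainly of blood cells, fell by -0.65 in LWT and -0.37 in LKO mice. Pik3r5 rose in both (0.79 and 0.88), from a level well above background on 2 of 6 fed LWT arrays.

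Of 14 non-member genes of the list of Akt kinases and regulators, 8 rose and 1 fell in LWT mice and 7 rose and 1 fell in LKO mice, the latter being Pdk1. The pseudokinase Trib3, described as an Akt inhibitor and a target of the integrated stress response, rose by 2.03 in LWT (adjusted p 9.95e-07) and by 2.97 in LKO (adjusted p 1.53e-09), and the difference of 0.93 was not called (adjusted p 0.0505). Trib1 rose by 0.30 in LWT and 1.02 in LKO, a called difference of 0.72 (adjusted p 0.000871). Trib2 rose in both genotypes, by 0.88 and 0.72. Pdk1, counted in this list, is under this symbol a pyruvate dehydrogenase kinase and not the kinase that activates Akt. It fell by -1.30 in LKO mice (adjusted p 5.98e-05), while the kinase that activates Akt, Pdpk1, rose by 0.23 in LWT mice (adjusted p 0.0117) and by 0.36 in LKO mice (adjusted p 9.13e-05).

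Downstream of Akt, 9 of 22 genes rose and 5 fell in LWT mice, and 7 rose and 7 fell in LKO mice. Mtor rose by 0.51 in LWT (adjusted p 5.51e-06) and changed by -0.01 in LKO, a difference of -0.52 (adjusted p 0.000742), the sign of that of Insr. Tbc1d1, a Rab GTPase-activating protein that Akt phosphorylates, differed the same way (-0.60, adjusted p 0.00603). Tsc1, an inhibitor of mTORC1, rose by 0.59 in LKO mice (adjusted p 8.04e-06) against 0.16 in LWT, and Deptor fell in both (-0.43 and -0.77).

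On the glucagon side, 5 of 16 non-members rose and 1 fell with fasting in LWT mice, 2 rose and 3 fell in LKO mice, and 2 were higher and 6 lower in fasted LKO than fasted LWT mice. The adenylyl cyclase Adcy6 rose by 0.69 in LWT and 0.34 in LKO and was lower in fasted LKO mice by -0.60 (adjusted p 0.000258). Adcy9 rose by 0.33 in LWT and changed by -0.17 in LKO, a difference of -0.50 (adjusted p 0.00812). Gnas, the stimulatory G protein subunit, was chosen after its values were seen and was lower in fasted LKO mice by -0.48 (adjusted p 2.33e-05). Adcy1 was not well above background on any LWT array and was at least 1.81-fold higher in fasted LKO than in fasted LWT mice. The bound is the bright group's mean against the lowest signal well above background on each dim array. Adcy1 is counted among the 2 higher genes, but it passed the filter on dim probes only through the fasted LKO mice. It was well above background in 6 of these and in 1 fed LKO mouse, so its p-value is not given. Rgs4 was well above background on no fed LWT array and 3 of 6 fasted LWT arrays, so no fold is given.

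Of 29 genes of protein kinase A, phosphodiesterases and the CREB branch, 9 rose and 6 fell in LWT mice and 10 rose and 7 fell in LKO mice. The coactivator Ppargc1a, a target of CREB, rose by 1.74 in LWT (adjusted p 9.52e-06) and 1.23 in LKO (adjusted p 0.000126). Rapgef4, a cyclic AMP sensor, rose by 1.12 and 1.35. The difference of the responses was called for 3 of these 29 genes, where 18.3% of all genes tested were. Of these 3 genes, 2 are phosphodiesterases, which break down cyclic AMP. Pde4d rose by 1.79 in LWT and changed by 0.15 in LKO, a difference of -1.64 (adjusted p 0.0114), and Pde4b fell by -1.11 in LWT and changed by -0.01 in LKO, a 2.15-fold difference of the responses (adjusted p 0.0461).

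Of 11 non-member transcripts known to respond to insulin in liver, 5 rose and 5 fell with fasting in each genotype. The difference of the responses was called higher for 2 and lower for 2 of them, where 7.71% and 10.6% of all genes were. Srebf1 fell by -3.16 in LWT and -3.69 in LKO mice (adjusted p 1.84e-12 and 3.05e-14), a called difference of -0.53 (adjusted p 0.0411). In fasted mice Srebf1 was lower in LKO by -0.78 (adjusted p 5.16e-05). Igfbp1, which insulin represses, rose by 1.93 in LWT (adjusted p 0.00169) and by 3.18 in LKO (adjusted p 2.35e-06), and the difference of 1.26 was not called (adjusted p 0.168). Pnpla3 fell in LWT mice (adjusted p 0.000152), being well above background on no fasted LWT array. The fed LWT mean was 13.7-fold above the lowest signal well above background on the fasted LWT arrays. This ratio leaves out the spread of the fed LWT mice, from -4.63 to 1.42 (SD 2.41), and so is not a minimum for the fall. Of these fed mice, 4 of 5 were well above background. Pnpla3 was also lower in LKO mice (adjusted p 2.37e-06). Only 2 of 6 fasted LKO arrays were well above background, so no size is given there. Of the ligands listed, Ins1, Ins2 and Igf2 were not tested because they did not pass the filter, and the 2 tested were called in no comparison.

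**Figure D5:**
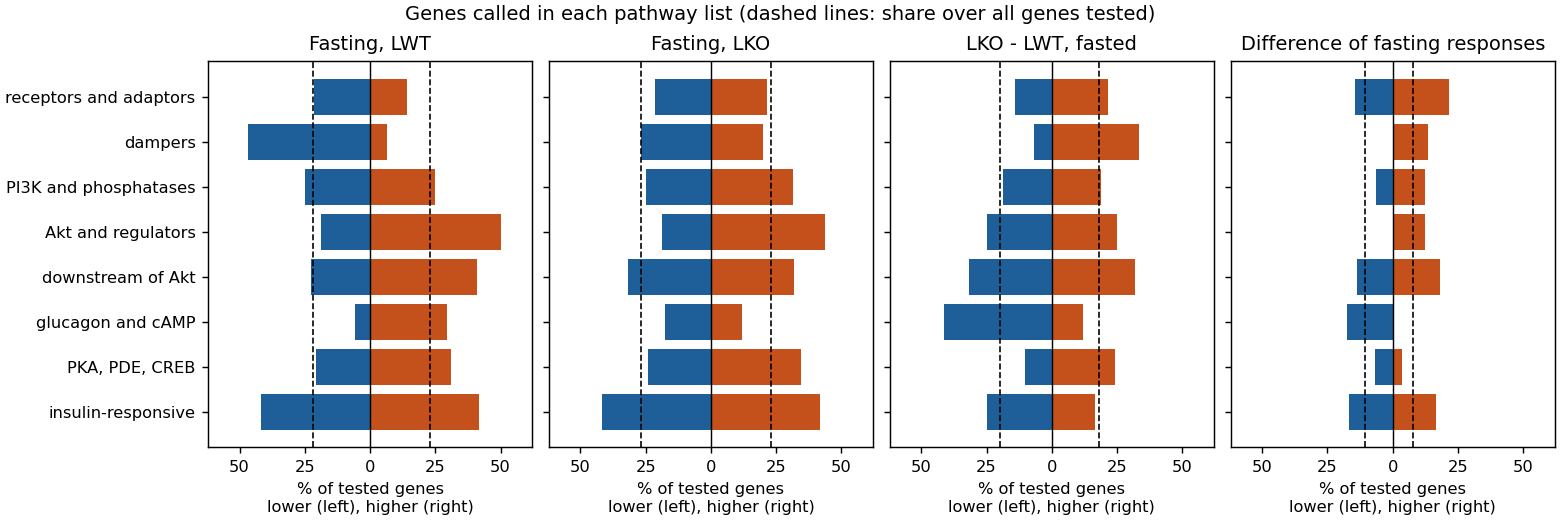
Share of the tested genes of each pathway list, members included, called higher (right) or lower (left) in 4 comparisons, with dashed lines at the shares over all genes tested. Of the 15 genes listed as dampers of the receptor, 7 are lower with fasting in LWT mice. Of the 17 genes of glucagon and cyclic AMP production, 7 are lower in fasted LKO than in fasted LWT mice.

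Promoters of 8 of the 9 members were matched by symbol in a RefSeq table of build GRCm38.p6, in 13 entries, Insr being the member not matched. The 250 bases before the annotated start are shown for Pik3r1 and Grb14, whose fasting responses differed between genotypes, and for the paired substrates Irs1 and Irs2. They were searched on both strands for the letters GTAAACA (a FoxO site), TGTTTTG (the core of an insulin response element), TGACGTCA (a cyclic AMP response element), TGACG (its core, which lies inside the full site) and DR1, 2 copies of AGGTCA with 1 base between them, the kind of site Ppara binds. Among 32851 promoters of this length 3.17%, 5.56%, 1.55%, 17.8% and 0.0335% held them. Capitals mark every match.
Irs1, chr1:82291440-82291689, minus strand: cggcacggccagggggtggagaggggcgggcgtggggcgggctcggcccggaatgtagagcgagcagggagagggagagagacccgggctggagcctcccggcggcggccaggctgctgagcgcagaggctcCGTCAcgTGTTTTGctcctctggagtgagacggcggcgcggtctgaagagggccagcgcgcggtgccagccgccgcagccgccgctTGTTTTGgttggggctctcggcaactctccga
Irs2, chr8:11008930-11009179, minus strand: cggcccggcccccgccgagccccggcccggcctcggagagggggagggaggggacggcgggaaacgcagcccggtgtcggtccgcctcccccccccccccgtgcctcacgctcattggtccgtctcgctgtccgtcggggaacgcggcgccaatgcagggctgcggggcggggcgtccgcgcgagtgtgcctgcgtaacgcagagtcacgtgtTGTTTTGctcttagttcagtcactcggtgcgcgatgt
Pik3r1, chr13:101768218-101768467, minus strand: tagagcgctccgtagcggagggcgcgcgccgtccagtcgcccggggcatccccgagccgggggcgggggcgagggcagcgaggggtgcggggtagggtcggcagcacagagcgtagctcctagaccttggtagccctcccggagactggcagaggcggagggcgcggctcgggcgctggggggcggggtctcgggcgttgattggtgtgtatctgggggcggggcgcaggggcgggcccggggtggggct
Pik3r1, chr13:101692631-101692880, minus strand: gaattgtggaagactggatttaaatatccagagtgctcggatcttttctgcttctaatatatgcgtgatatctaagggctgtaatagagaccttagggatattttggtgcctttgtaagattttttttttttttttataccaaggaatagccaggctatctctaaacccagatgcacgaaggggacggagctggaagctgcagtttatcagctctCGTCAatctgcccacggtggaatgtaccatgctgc
Grb14, chr2:65022767-65023016, minus strand: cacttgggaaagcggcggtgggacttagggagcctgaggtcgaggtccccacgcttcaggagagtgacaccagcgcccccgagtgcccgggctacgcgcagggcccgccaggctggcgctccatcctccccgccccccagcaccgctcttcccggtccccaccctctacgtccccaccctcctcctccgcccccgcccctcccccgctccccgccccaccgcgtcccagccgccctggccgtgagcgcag
The Irs1 window held 2 matches to TGTTTTG and 1 to TGACG, and the Irs2 window held 1 to TGTTTTG. The second Pik3r1 window held 1 match to TGACG, and the first Pik3r1 window and that of Grb14 held none of these letters. A match is a description of the letters and not of binding.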

How the data were processed

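Liver RNA of 22 male mice in 4 groups was measured on 24 1-colour Agilent arrays, the 2 arrays of each of 2 animals being averaged. Per the file headers, the deposited scanner intensity (processed signal) was background-subtracted and detrended by Feature Extraction 10.10.1.1. A log2 table, normalized between arrays, was deposited by the authors as well. Its steps are not given in the sources used here, and the submitters' processing notes name limma. Here the log2 intensity minus the array's 75th percentile over non-control, non-outlier spots was used, and 28138 of 46291 probes with a symbol were kept as well above background in at least 5 animals. A gene was its brightest kept probe. Comparisons were fitted with limma 3.58.1 in R 4.3.3 on all 22 animals, adjusted over 17215 genes by Benjamini-Hochberg and called below 0.05. Scripts were tested on simulated data. Outlier-flagged spots were left out. Precision is limited by the number of arrays and by signal over background. All 9 members were described. From each pathway list, up to 4 non-member genes were named, taking the largest changes over all comparisons that were called and free of overlap between groups (the latter not asked of the interaction), and for members whose group means spanned 1 log2 unit or more the 3 most similar genes. Gnas and Pdpk1 were chosen after their values were seen. Some genes of the lists are not reported here by name. The members and lists were chosen with earlier results of these data known. Replicate numbers, slides, normalization, background correction, probe filter, choice of probe and left-out animals were tried as alternatives.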

Additional observations from a re-analysis of the deposited data

Results flagged for a closer look

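The fasting response differed between LKO and LWT mice by the interaction term of the limma fit for 3 members. For Insr the difference was -0.4925 (log2, adjusted p 0.00521), for Grb14 0.6032 (adjusted p 0.00276) and for Pik3r1 0.7055 (adjusted p 0.00576). Within the 3 slides the differences kept one sign, at -0.67 to -0.23 for Insr, 0.34 to 1.00 for Grb14 and 0.63 to 0.77 for Pik3r1. No animal stood out by Dixon's test in the 36 member groups tested, where chance alone marks about 1 in 20.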

How the results depend on the processing

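Of 1521 member values under the alternatives, 1491 kept their side of the threshold, 20 became called and 10 lost their call. No called change took the opposite sign, but some changes that were not called did. With 1 animal left out, Irs1 with fasting in LWT ranged from -0.009016 to 0.1254. Over the other settings, Akt1 between fasted genotypes ranged from -0.1397 to 0.1387. With the mean over whichever kept probes an animal has, added after the data were seen, 2 members were called with fasting in LWT mice, as Akt1 (adjusted p 0.282, fasted LKO replicate 5 lacking its brightest probe) and Akt2 (0.108) lost their calls. Leaving an animal without a probe out for that gene replaced that rule. Akt2 minus Akt1 in LWT mice was 0.1878 with quantile normalization (adjusted p 0.0714) and 0.201 in the deposited table (adjusted p 0.0519). Leaving out 1 animal gave 0.1711 to 0.2368 for it, with the call changed in 5 cases, -0.2781 to -0.2018 for Gcgr minus Insr in LWT (adjusted p 0.0952 without fed LWT replicate 1), 0.4189 to 0.7812 for Irs2 minus Irs1 in LKO (adjusted p 0.0317 without fed LKO replicate 3) and 0.113 to 0.1964 for Gcgr minus Insr in LKO (adjusted p 0.0476 without fed LKO replicate 5). The call for Akt2 with fasting in LWT was lost with the mean over probes (-0.12, adjusted p 0.108). Akt2 became called lower in fasted LKO than fasted LWT mice with normexp (adjusted p 0.0416), the stricter filter (0.049), the mean over probes (0.00432), the percentile over probes (0.035), which was replaced after the data were seen, and only the 2 groups in the fit (0.0432), and Pik3ca became called with fasting in LKO with only the 2 groups in the fit (0.0299). With only the 2 fed groups in the fit, 376 genes were called between them against 684. With the replicate block the members called were 4, 5, 0, 4 and 3 in the 5 comparisons. Same-numbered animals correlated at -0.181 to 0.177 after each group was centred. Differently numbered animals were not set beside them, so whether the numbers pair animals was not settled. The replicate block changed no member's call but that of Gcgr. Without the filter on dim probes 27248 genes were tested and 6963, 8030, 472, 5727 and 2299 were called. Signal over background limits what Adcy1, Rgs4, Grb10 and Pnpla3 show.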

Other observations

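Irs2 varied widely among fed LKO mice, and its level was set against 11 insulin-responsive transcripts over these 6 animals, with exact permutation p-values adjusted over the 11. None passed: the largest correlation was with Foxo1 (Pearson r -0.937, exact p 0.0139, adjusted 0.153, Spearman rho -0.886, and r -0.874 without the 2 animals farthest from the median). The 6 animals include fed LKO replicate 3, which stood apart over all genes, and the correlation without that animal alone was not computed.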
